A study of Mus musculus with 49 samples.

Results

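The comparison set 2 mouse induced pluripotent stem cell lines side by side, the line named Dlx3RNAi and the line named G3, with 2 arrays each. These 4 arrays were taken by their labels out of 49 in the series, and 12090 genes were compared between them. Induced pluripotent stem cells (iPSCs) are body cells returned to a state resembling that of embryonic stem cells by forced expression of a few transcription factors. Dlx3RNAi differs from G3 in its label by a treatment entry, RNA interference against Dlx3, whereas the label of G3 gives no treatment and the meaning of its name is not analysed here. Both lines have the strain entry OGXICR, female sex, skin as the tissue and an age of D13.5, and a doxycycline-inducible lentiviral system was used for both. Both were grown with the inhibitors PD0325901 and CHIR99021, or LIF in their place, on a layer of fibroblasts stopped from dividing with mitomycin C. Whether a line is 1 clone is not given in the sources used here, so the RNA interference and the history of each line cannot be told apart. A further iPSC line (G6Gm), the embryonic stem cell line R1 and uninfected embryonic fibroblasts (MEF), 2 arrays each, served as reference levels. G6Gm and MEF carry the same entries of strain OGXICR, female sex, skin and an age of D13.5, and G6Gm was grown as the other iPSC lines were. The MEF were skin fibroblasts grown in serum medium, and R1, of strain 129, was grown in the iPSC medium on the same kind of feeder, with no age entry.

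The series was a search for reprogramming factors. Reprogramming of fibroblasts is known to pass through loss of the mesenchymal programme, gain of epithelial adhesion genes, fast cell division and late activation of the pluripotency network. Dlx3 is a homeobox transcription factor known for its work in skin, hair and placenta. Interferon-stimulated genes are antiviral genes that cells switch on through STAT transcription factors, and pluripotent cells are known for a muted interferon response.

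The arrays carried 1 colour, and all levels below are deposited intensities with an unstated background correction. Differences are on the log2(intensity + 32) scale as Dlx3RNAi minus G3, so positive values mean higher in Dlx3RNAi, and this scale understates the change of dim genes. Adjusted p-values came from limma with Benjamini-Hochberg adjustment over all 12090 genes, and a gene was called higher or lower when that value was under 0.05. The median intensity was 295.9 to 296.2 on each of the 10 arrays, and the sorted values coincided between arrays. Replicate arrays differed by a median of 0.15 log2 units in Dlx3RNAi and 0.12 in G3, and their log2 values correlated at 0.990 and 0.991 across genes, which are not independent replicates. Nothing in the labels says that the 2 arrays of a line came from separate cultures, so the p-values measure the spread between arrays, and this number of arrays limits the precision. An exact permutation test of any single summed value, with 2 arrays against 2, cannot give a two-sided p below 0.333.

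Dlx3 itself did not separate the lines. Its intensity was 254 and 384 in Dlx3RNAi and 451 and 300 in G3, so the arrays overlapped. The difference was -0.21 (SE 0.24, adjusted p = 0.495). Mean Dlx3 intensities were 266 in G6Gm, 573 in R1 and 118 in MEF. Its family member Dlx2 lay near background in both lines, at 77.8 and 82.3 against 74.6 and 76.1. Of 11 measured genes on the list of factors used in the study, 5 were lower in Dlx3RNAi (3 with the error from all 49 arrays) and none was higher. The 5 were Gmnn, which restrains DNA replication licensing (-0.59), Cebpa, a lineage factor of blood and fat (-0.67), and the stem cell factors Sox2 (-0.77), Sox3 (-0.81) and Pou5f1 (-0.95). Klf4 stood at 1696 and 1804 against 1742 and 1748, a difference of 0.00. Gata6 (0.31), Gata4 (0.26), Grb2 (0.20) and Mixl1 (0.06) did not pass the test either.

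The lines differed over a large share of the genome. In all, 5300 of 12090 genes (43.8%) passed the test. Of these, 2396 (19.8%) were higher in Dlx3RNAi and 2904 (24%) were lower. A difference of at least 2-fold was met by 690 higher genes (5.71%) and by 409 lower genes (3.38%), while the median over all genes was -0.02. Larger differences therefore ran more often towards Dlx3RNAi, although more genes were called lower. A fit that shared its error estimate across all 49 arrays called 3043 genes, 1407 higher and 1636 lower. Among genes named here by the rule, Actc1, Bmp2, Cebpa, Col18a1, Dusp6, Egr1, Gmnn and Ier2 lost their calls in that fit. So did Kdm5d, Manba, Nfkb1, Nt5e, Smad6, Socs3, Twist1 and Ubd. Leaving out 1 or another of the 4 arrays lost the calls of Actc1, Bmp2, Cebpa, Col18a1, Dnmt3b, Dusp6 and Gmnn. It also lost those of Manba, Nt5e, Smad6, Socs3, Twist1, Ubd and Vim.

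**Figure D1:**
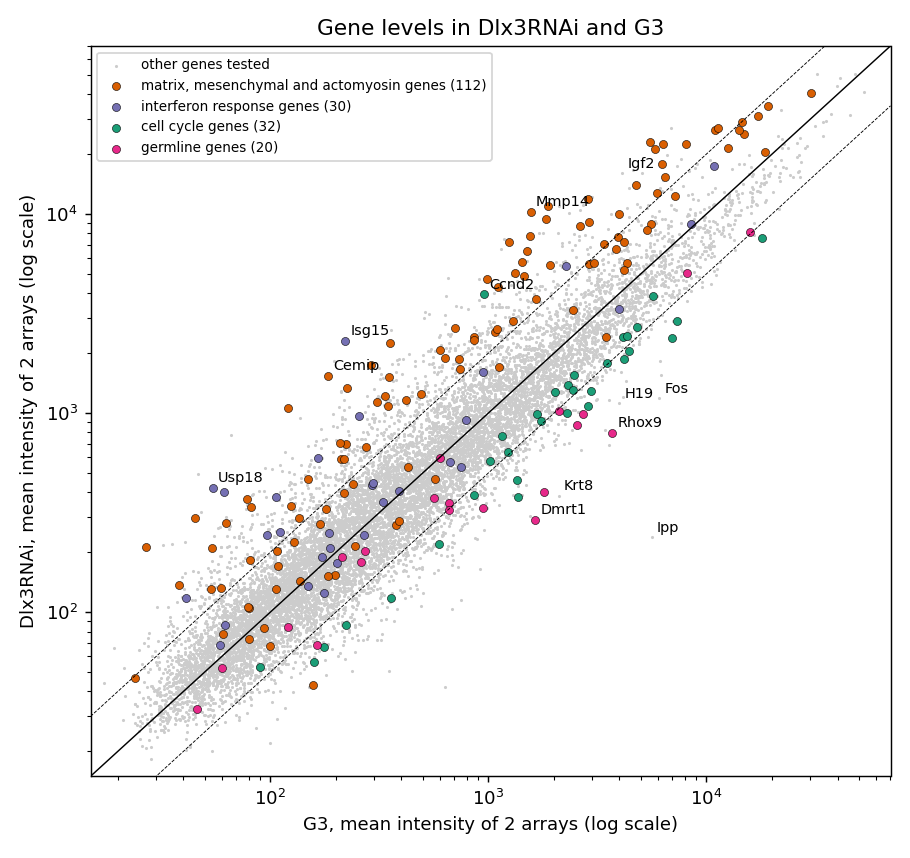
Mean intensity of each of 12090 genes in G3 (horizontal, log scale) and Dlx3RNAi (vertical, log scale), with 4 groups of genes in colour, a solid line where both lines are equal and dashed lines at a 2-fold difference. The 112 matrix, mesenchymal and actomyosin genes lie mostly above the solid line, the 32 cell cycle genes mostly below it, and Ipp far to the right.

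Genes of the extracellular matrix led the rise in Dlx3RNAi. Of 20 measured collagen genes, 15 were higher and 1, Col18a1, was lower (-0.51), with a list median of 1.33 against -0.02 over all genes, and 12 were at least 2-fold higher. Of 42 measured genes for matrix glycoproteins, proteoglycans and matrix proteases, 38 were higher, none was lower and 28 were at least 2-fold higher, with a median of 1.30. Col1a2, a chain of the main fibrillar collagen of connective tissue, stood at 11617 and 12169 in Dlx3RNAi and 2844 and 2882 in G3, with 8541 and 9093 in MEF. Both Dlx3RNAi arrays thus lay above both MEF arrays, and the difference from G3 was 2.04 (SE 0.09, adjusted p = 1.08e-07). Col6a1, a chain of the beaded-filament collagen, had 10817 and 11041 against 1815 and 1936, a difference of 2.52 (SE 0.10, adjusted p = 4.23e-08). Mmp14, a membrane-bound protease that cuts collagen and activates Mmp2, had 10169 and 10438 against 1633 and 1498, a 6.48-fold difference, with 6482 and 5883 in MEF. Its substrate Mmp2 had 7135 and 7430 against 1306 and 1193 (2.51). The intensities of these 4 genes did not overlap between the lines on any array. The same held for 8676 of all 12090 genes tested, and non-overlap was a condition for naming the 15 largest rises and falls.

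Further members filled out the matrix group. Mfap4, a protein of elastic microfibrils, had 993 and 1122 in Dlx3RNAi and 131 and 111 in G3 (2.83). Aspn and Dpt, small matrix proteins that bind collagen or its partners, had 895 and 660 against 78.0 and 54.6 (3.04), and 518 and 472 against 47.7 and 46.0 (2.74). In G3 both lay near the low end of the intensity range, while in Dlx3RNAi they lay near the MEF levels, which were 1044 to 1077 for Aspn and 420 to 431 for Dpt. Crispld2, a secreted protein of mesenchyme, rose by 3.04, Cemip, which takes part in hyaluronan breakdown, by 2.88, Thbs2, a matricellular glycoprotein, by 2.55, and the integrin Itga11, a collagen receptor, by 2.52. Postn, a matricellular protein of remodelling tissue, had 23487 and 18860 against 5945 and 5648 (1.85). Some bright members differed less, among them Sparc (0.99), Fn1 (0.78) and the protease inhibitor Timp1 (0.76), all 3 called higher.

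Contractile and mesenchymal genes followed. Of 24 measured actomyosin genes, 21 were higher and 1, cardiac actin Actc1, was lower (-0.40), with a median of 0.92. Smooth muscle actin, Acta2, had 10252 and 8563 in Dlx3RNAi and 1788 and 1886 in G3, and 4920 and 5074 in MEF (2.33, SE 0.11, adjusted p = 1.08e-07). Tagln, an actin-binding protein of contractile cells, had 1505 and 1536 against 396 and 308 (2.02). Both genes were several fold higher on every Dlx3RNAi array. Of 26 measured genes of mesenchymal identity, 20 were higher and 2 were lower, with a median of 0.92. The 2 lower members were Dlk1, an imprinted gene of mesenchymal progenitors, which had 49.2 and 36.6 against 173 and 141 (-1.34), and Nt5e, an ecto-enzyme (-0.43). Vim, the intermediate filament of mesenchymal cells, was among the brightest genes in both lines, at 42728 and 38139 against 30270 and 30270, and differed by only 0.41. Twist1, a transcription factor that drives mesenchymal change, had 288 and 270 against 155 and 183 (0.63).

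Genes of the TGF-beta and BMP pathways moved in the same direction. This family of secreted ligands signals through receptor kinases and SMAD proteins and is known to drive matrix production. Of 29 measured members, 15 were higher, 2 were lower and the median was 0.54. Among ligands, Tgfb3 had 3061 and 3417 against 561 and 467 (2.59), Tgfb2 had 2102 and 1802 against 526 and 482 (1.88), and Inhba, the activin subunit, had 2247 and 2347 against 827 and 800 (1.46). None of these overlapped between lines, as was true of most genes tested. Inhba lay near 190 in MEF, below both lines. Ltbp2, a matrix protein related to those that hold latent TGF-beta, rose by 2.03, the BMP antagonist Grem1 by 2.09, the procollagen-processing protease Bmp1 by 1.90, the receptor Tgfbr2 by 1.35 and the target Id3 by 1.23. The inhibitor Smad6 (-0.43) and the ligand Bmp2 (-0.41) were the 2 lower members.

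The 4 lists of collagen, matrix, mesenchymal and actomyosin genes together held 112 measured genes, of which 94 were higher in Dlx3RNAi and 4 were lower. The 94 differences ran from 0.32 to 2.88 with a median of 1.33. Set against MEF, the 94 genes had a median level of 90.6% of the fibroblast level in Dlx3RNAi and 27.3% in G3, with 69.8% in G6Gm and 40.4% in R1. The 94 genes were chosen as higher in Dlx3RNAi than in G3, so the order of those 2 lines was fixed by the choice. Single genes did not share 1 ratio: in Dlx3RNAi the percentages ran from 1.74 to 962, and 37 of the 94 genes lay above MEF. Ptn, a secreted growth factor, was lowest, at 244 and 182 against 13062 and 11436 in MEF, and Mmp9, a gelatinase, was highest, at 579 and 594 against 59.1 and 62.8. G3 had the lowest level of the 4 pluripotent lines in 82 of the 94 genes, and Dlx3RNAi had the highest in 72, counts that follow in part from choosing the genes on these lines.

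**Figure D2:**
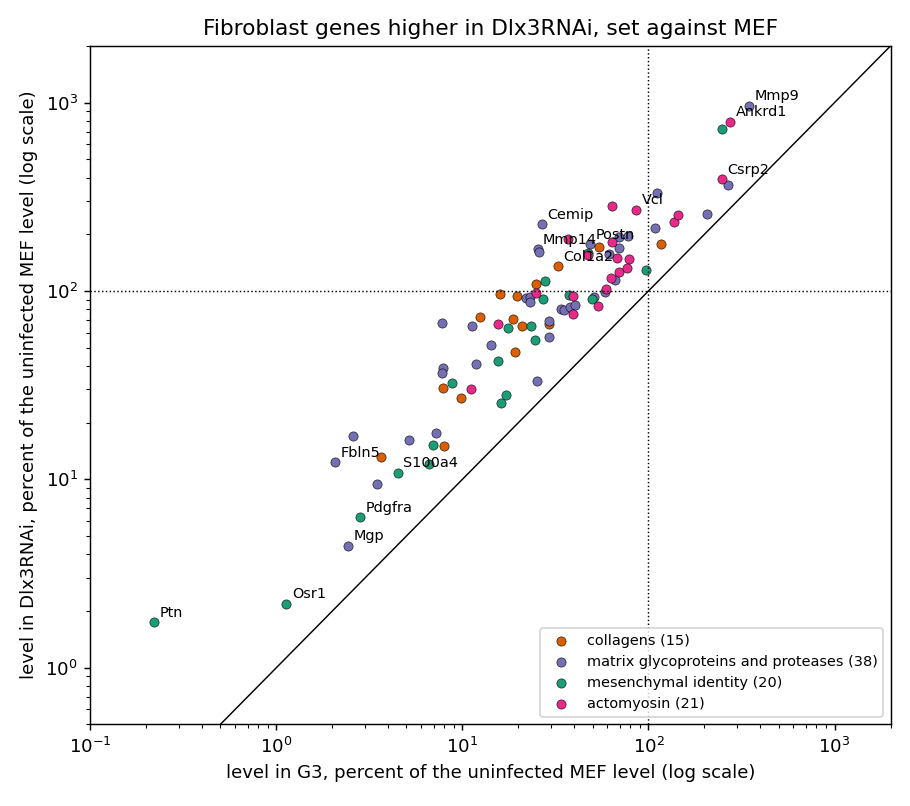
Mean level of each of the 94 fibroblast-type genes called higher in Dlx3RNAi, as a percent of its mean level in MEF (both axes log scale), in G3 (horizontal) and in Dlx3RNAi (vertical), coloured by list, with the solid line where both lines are equal and dotted lines at the MEF level. The choice of genes called higher in Dlx3RNAi places the points above the solid line. The points spread widely around medians of 27.3% in G3 and 90.6% in Dlx3RNAi, with Ptn far below and Mmp9 far above the MEF level.

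Fibroblast markers were summed as well. The summed intensity of 9 measured fibroblast markers, of 12 listed, was 50094 and 44432 in Dlx3RNAi, 12992 and 13230 in G3, 36517 and 35191 in G6Gm, 24173 and 25763 in R1, and 60969 and 66586 in MEF, and all 9 were called higher. The sum was carried by a few bright genes, and Postn alone had a mean of 21174 in Dlx3RNAi. As a percent of MEF, Dlx3RNAi had 177% for Postn but 6.28% for Pdgfra, 10.8% for S100a4, 12.1% for Snai2, 13.1% for Col3a1 and 28.1% for Twist1, so 5 of the 9 markers lay far below the fibroblast level. None of the 9 was at 0 in G3, where the dimmest, Col3a1, had 41.4 and 34.6. The summed intensity of 4 measured pluripotency markers, of 10 listed, was 9525 and 8777 in Dlx3RNAi, 15480 and 13532 in G3 and 325 and 333 in MEF, and all 4 were called lower. In RNA from a whole culture, fewer cells of a type and less RNA per cell cannot be told apart. The part of feeder or unconverted fibroblasts in the difference was not tested.

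Splitting all genes by the other groups gave a wider view. The genes were classed only by their levels in MEF and R1, which used no Dlx3RNAi or G3 array. Of 1847 genes at least 2-fold higher in MEF than in R1, 862 (46.7%) were higher in Dlx3RNAi and 172 (9.31%) were lower, with a median of 0.33. Of 1751 genes at least 2-fold higher in R1, 204 (11.7%) were higher and 763 (43.6%) were lower, with a median of -0.28. Among the other 8492 genes, 1330 (15.7%) were higher and 1969 (23.2%) were lower. Exceptions ran in both directions. Pclaf, a partner of the replication clamp, had 103 and 104 in Dlx3RNAi, 611 and 754 in G3, and 655 and 895 in MEF, so this gene of the MEF class was lower in Dlx3RNAi (-2.39). Itga5, the fibronectin receptor chain, belonged to the R1 class with 1735 and 1757 there and 823 and 847 in MEF, yet had 5158 and 4780 in Dlx3RNAi and 1210 and 1353 in G3 (1.93). Of the 690 genes at least 2-fold higher in Dlx3RNAi, 118 lay at least 2-fold above MEF as well, and for 69 the MEF level was at or below that of G3.

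An interferon-stimulated gene had the largest rise of all. Isg15, a ubiquitin-like protein that is attached to other proteins during the antiviral response, had 2420 and 2214 in Dlx3RNAi and 220 and 221 in G3, a 9.28-fold difference (log2 3.21, SE 0.17, adjusted p = 1.88e-07). G6Gm lay closer to Dlx3RNAi, at 1651 and 1570, whereas R1 had 390 and 394 and MEF 417 and 670. Both Dlx3RNAi arrays stood above every array of the other 4 groups. Of 30 measured interferon-stimulated genes, 14 were higher, 1 was lower and the median was 0.35. The lower member was Ubd, a ubiquitin-like modifier (-0.46). Usp18, which removes Isg15 from proteins, had 408 and 437 against 56.2 and 52.7 (2.39), and Ifit1, which binds foreign RNA, had 392 and 416 against 50.4 and 72.5 (2.23). Irf7, the transcription factor that amplifies the response, had 620 and 566 against 177 and 154 (1.67), and Xaf1, a pro-apoptotic target, had 888 and 1058 against 246 and 267 (1.80). None of these 4 overlapped between the lines, as was true of most genes tested. Ifi27l2a (1.58), Ifi27 (1.26) and Ifit2 (1.04) were also higher. The reference levels differed between genes. Xaf1 had 869 and 901 in G6Gm and 1141 and 1011 in R1, so G3 was the low one of the pluripotent lines. For Ifi27l2a, G3 lay at least 2-fold below each of the other 4 groups. Usp18 had 311 and 344 in G6Gm but 79.4 and 84.5 in R1, nearer to G3.

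The promoters of the antiviral genes were read because Isg15 and Ifit1 moved together, and the 150 bases before each start are shown 5′ to 3′ on the gene's strand, from RefSeq on build GRCm38.p6. Capitals mark each match to the interferon response core GAAANNGAAA or its reverse complement.
Isg15, chr4:156200819-156200968, minus strand: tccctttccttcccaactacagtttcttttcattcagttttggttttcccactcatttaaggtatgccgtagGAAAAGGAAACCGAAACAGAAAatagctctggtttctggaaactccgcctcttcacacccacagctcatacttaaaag
Ifit1, chr19:34640739-34640888, plus strand: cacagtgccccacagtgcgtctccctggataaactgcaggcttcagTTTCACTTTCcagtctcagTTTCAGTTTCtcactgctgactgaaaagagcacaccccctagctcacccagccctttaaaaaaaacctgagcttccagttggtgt
In Isg15, 3 overlapping matches begin 78, 72 and 66 bases before the start, and in Ifit1, 2 matches on the opposite strand begin 104 and 85 bases before it. Over 250 bases before the start on both strands, the core stood in 4 of the 10 higher interferon members with a promoter in the table (Gbp3, Ifit1, Irgm1 and Isg15), and in 9 of the 21 measured members that had one. The share was 3.01% among 9724 tested genes with a promoter and 2.98% among all 32851 promoters. A match is only a description of the letters.

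Chemokines and other inflammatory genes were also mostly higher, beside 19.8% of all genes called higher and 24% called lower. Of 30 measured members, 17 were higher and 1 was lower, with a median of 0.52. Ccl7, which attracts monocytes, had 3193 and 3484 in Dlx3RNAi and 792 and 825 in G3 (2.00), and Cxcl5, which attracts neutrophils, had 1183 and 1148 against 209 and 225 (2.27). Both lay above MEF, where Ccl7 had 957 and 1029 and Cxcl5 had 330 and 251. Haptoglobin, Hp, an acute-phase protein, rose by 1.81, Cxcl1 by 1.65, the macrophage growth factor Csf1 by 1.56 and Cxcl12 by 1.46. The lower member was Nfkb1, a subunit of the NF-kappaB transcription factor, with 269 and 206 against 595 and 525 (-1.14). Of 13 measured antigen presentation genes, 6 were higher and 4 were lower with a median of -0.03: B2m, the light chain of class I molecules, rose by 0.97 and the immunoproteasome subunit Psmb8 by 1.07, while Psmb9 fell by 0.98. Of 16 measured myeloid marker genes, 10 were higher and 3 were lower, yet their summed intensity was 6639 and 6585 in Dlx3RNAi and 7158 and 7200 in G3. The shares of antigen presentation and myeloid genes called lower lay near that of all genes. With the error taken from all 49 arrays, 4 myeloid members were called higher and 1 lower, and 3 antigen presentation genes were higher and 2 lower.

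Cell division genes were lower in Dlx3RNAi nearly throughout. Of 32 measured members, 30 were lower, 1 was higher and the median was -1.02, with 16 at least 2-fold lower. Top2a, the topoisomerase that untangles replicated DNA, had 2373 and 2384 in Dlx3RNAi, 7135 and 6751 in G3, 5927 and 5599 in R1 and 1172 and 1303 in MEF (-1.53, SE 0.11, adjusted p = 7.85e-07). Ccnb2, a cyclin of mitosis, had 370 and 389 against 1242 and 1501 (-1.76), and Mki67, the proliferation antigen, had 462 and 467 against 1403 and 1303 (-1.48). In all 3 the Dlx3RNAi arrays lay close together and below R1. For Ccnb2, G6Gm lay near Dlx3RNAi, at 374 and 331. The spindle checkpoint gene Mad2l1 fell by 1.37, the kinesin Cenpe by 1.41 and the nucleotide reductase Rrm2 by 1.33. The higher member was Ccnd2, a cyclin of the first growth phase, with 3954 and 3968 against 986 and 933 (2.01) and 7721 and 7135 in MEF. E2f2, a transcription factor of replication genes, did not pass (-0.52, adjusted p = 0.0539). Of 20 measured p53 and senescence genes, 9 were higher and 4 were lower, with a median of 0.29, beside 19.8% higher and 24% lower over all genes. Among inhibitors of cyclin-dependent kinases, Cdkn2b had 2756 and 2554 against 715 and 695 (1.87) and Cdkn1a had 27639 and 28695 against 14135 and 13715 (1.01). Cdkn2a stood at 520 and 460 against 387 and 444 and did not pass (0.22). The death receptor Fas rose by 1.42 and Mdm2, which marks p53 for degradation, by 0.63.

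The promoters of 2 lower mitotic genes are shown in the same way, because the CCAAT box is a known element of mitotic promoters. Capitals mark CCAAT and the cell cycle homology element TTTGAA, each on either strand.
Ccnb2, chr9:70421555-70421704, minus strand: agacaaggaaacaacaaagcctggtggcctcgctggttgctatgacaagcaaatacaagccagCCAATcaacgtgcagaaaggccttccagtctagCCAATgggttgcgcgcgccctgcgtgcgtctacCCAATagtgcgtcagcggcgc
Top2a, chr11:99024190-99024339, minus strand: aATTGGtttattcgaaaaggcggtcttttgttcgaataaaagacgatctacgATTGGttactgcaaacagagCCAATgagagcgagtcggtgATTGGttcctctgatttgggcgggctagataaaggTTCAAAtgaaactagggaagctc
Ccnb2 held 3 CCAAT boxes in this window, and Top2a held 4 together with 1 TTTGAA match that begins 23 bases before the start. Over 250 bases, CCAAT stood in 19 of the 24 lower cell cycle members with a promoter in the table, against 40.1% of the tested genes and 33.8% of all promoters. TTTGAA stood in 4 of the 24, against 13.2% of the tested genes and 16% of all promoters. Both are short motifs that occur often.

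**Figure D3:**
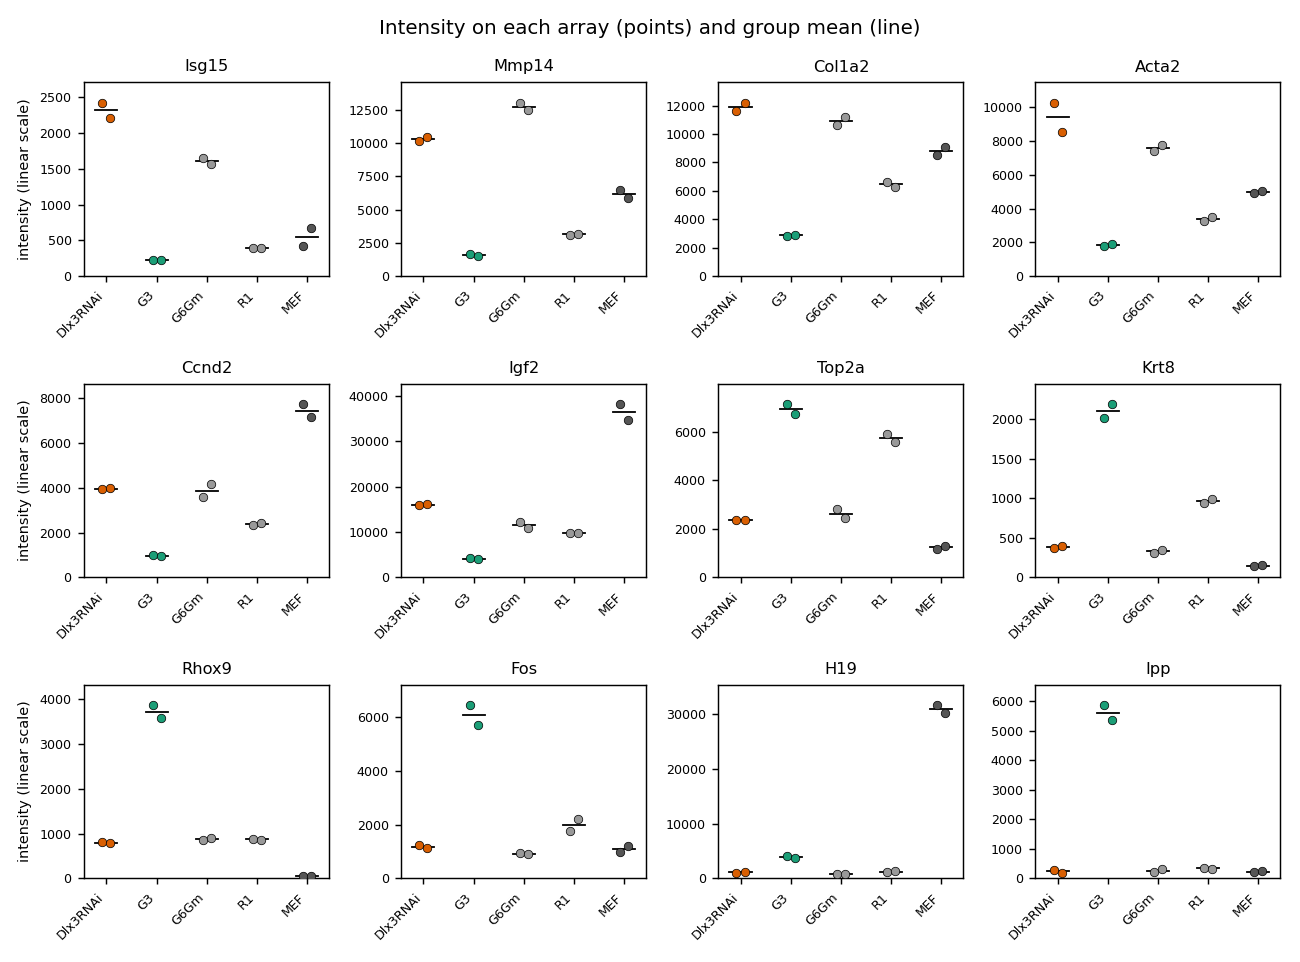
Intensity (linear scale) of 12 genes on each array of the 5 groups, with points for arrays and a line for the group mean. Isg15, Mmp14, Col1a2 and Acta2 are high in Dlx3RNAi and low in G3, Top2a and Krt8 are the reverse, and Ipp is high in G3 alone.

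Pluripotency genes differed less than the matrix genes did, and downward. Of 19 measured members, 9 were lower, 1 was higher and the median was -0.38. Sox2 had 4385 and 3458 in Dlx3RNAi and 7899 and 5658 in G3 (SE 0.16, adjusted p = 0.00225), and Pou5f1, which encodes Oct4, had 221 and 296 against 498 and 555 (SE 0.18, adjusted p = 0.00144). R1 had 6615 and 6509 for Sox2 but 360 and 252 for Pou5f1. Neither gene overlapped between Dlx3RNAi and G3, as was true of most genes tested. Zfp42, a zinc finger marker of naive cells, had 1399 and 1354 against 2381 and 2171 (-0.71), with 39.5 and 35.6 in MEF. Alkaline phosphatase, Alpl, fell by 1.04, the orphan receptor Nr0b1 by 0.85, Klf2 by 0.70 and the chromatin factor Utf1 by 0.45. The higher member of the list was Manba, a lysosomal enzyme (0.34), whose call was lost with the error from all 49 arrays. Nanog and Esrrb were not analysed here. Of 11 measured genes of primed epiblast, 5 were lower, among them the DNA methyltransferase Dnmt3b (-0.60) and Tead2 (-0.77), and 2 were higher, with a median of -0.41. Over all genes, 19.8% were called higher and 24% lower. With the error from all 49 arrays, 3 primed epiblast genes were lower and none was higher.

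Germline genes were lower without exception among those called. Of 20 measured members, 12 were lower, none was higher and the median was -0.89. Dmrt1, a transcription factor of germ cells, had 330 and 253 in Dlx3RNAi and 1777 and 1512 in G3 (-2.38). Dazl, an RNA-binding protein of germ cells, had 852 and 887 against 2598 and 2507 (-1.52), and 4453 and 4838 in R1. Rhox13, an X-linked homeobox gene, had 414 and 386 against 1980 and 1642 (-2.09), and 5638 and 4339 in R1. R1 therefore exceeded both lines for Dazl and Rhox13 but lay below G3 for Dmrt1, at 482 and 610. Rhox9, of the same homeobox cluster, had 809 and 787 against 3850 and 3564 (-2.17), while R1 and G6Gm lay between 863 and 892. Rhox5 was bright in both lines, at 8486 and 7835 against 13913 and 17719 (-0.94). The receptor kinase Kit and the piRNA pathway gene Piwil2 each fell by 1.42.

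Epithelial genes were lower too. Of 13 measured members, 8 were lower, none was higher and the median was -1.01. Krt8, a keratin of simple epithelia, had 372 and 397 in Dlx3RNAi, 2017 and 2191 in G3, and 936 and 986 in R1 (-2.36, SE 0.12, adjusted p = 1.68e-07). The tight junction claudins fell as a group of 4, Cldn4 by 1.91, Cldn7 by 1.55, Cldn6 by 1.42 and Cldn3 by 1.01. The membrane proteases Prss8 and St14 fell by 1.18 and 1.13. For Krt8, Cldn4 and Cldn6, G3 lay at least 2-fold above each of the other 4 groups. G6Gm had 312 and 347 for Krt8, near the level of Dlx3RNAi.

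Genes of other early lineages gave smaller counts in both directions, beside 19.8% of all genes called higher and 24% called lower. Of 20 measured primitive endoderm genes, 8 were higher and 4 were lower, with a median of 0.28. Of 16 mesendoderm genes, 4 were higher and 1 was lower, with a median of 0.22, led by the VEGF receptor Flt1 (1.87) and the ligand Wnt5a (1.55). Of 24 neural ectoderm genes, 4 were higher and 5 were lower with a median of 0.02: the adhesion molecule Ncam1 had 1869 and 1672 against 392 and 379 (2.11), whereas the neurofilament gene Nefm had 84.0 and 61.2 against 338 and 308 (-1.77). Of 12 trophoblast genes, 3 were higher and 5 were lower, with a median of -0.23, and the placental growth factor Pgf, at 16585 and 16384 against 8902 and 7721 (0.99), stood apart by its level. Of 20 keratinocyte genes, 5 were higher and 5 were lower. The shares of neural and keratinocyte genes called in each direction lay near those of all genes. So did the shares of mesendoderm and trophoblast genes called higher and of primitive endoderm genes called lower. With the error from all 49 arrays, 2 mesendoderm genes, 1 trophoblast gene and 2 keratinocyte genes were higher, and 2 keratinocyte genes and no mesendoderm gene were lower.

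Chromatin regulators, ribosomal protein genes and respiratory chain genes shifted down by smaller amounts. Of 35 measured genes of chromatin and DNA methylation, 22 were lower, none was higher and the median was -0.54. Members of Polycomb repressive complex 2, which methylates histone H3, were among them. Its accessory subunit Mtf2 had 1430 and 1469 in Dlx3RNAi and 3778 and 4800 in G3 (-1.53), its core subunit Suz12 had 2285 and 2487 against 5251 and 4644 (-1.04), and its catalytic subunit Ezh2 had 2345 and 2053 against 3487 and 3303 (-0.62). MEF lay below both lines in these 3 genes. Uhrf1, which maintains DNA methylation, fell by 0.92 and Ash2l, of the H3 lysine methyltransferase complexes, by 0.99. Of 33 ribosomal protein genes, 19 were lower and 2 were higher, with a median of -0.44, and with the error from all 49 arrays 12 were lower and none was higher. Of 27 respiratory chain genes, 12 were lower and none was higher, with a median of -0.32, and 3 were lower when the error came from all 49 arrays.

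Metabolic lists were mixed, beside 19.8% of all genes called higher and 24% called lower. Of 19 cholesterol and lipid genes, 10 were lower and 2 were higher, with a median of -0.35, and 6 were lower with the error from all 49 arrays. Of 24 glycolysis and hypoxia genes, 8 were higher and 5 were lower, with a median of 0.07. The glucose transporter Slc2a3 had 9285 and 11886 in Dlx3RNAi and 22629 and 20471 in G3 (-1.03), with 218 and 242 in MEF. In the opposite direction, Vegfa had 10074 and 8826 against 4991 and 4596 (0.97), and the regulator Pfkfb3 rose by 1.07. Cth, which makes cysteine from cystathionine, had 1577 and 1552 against 6527 and 5892 (-1.97), and Gmps, which makes guanine nucleotides, had 838 and 807 against 3567 and 3267 (-2.01). Of 30 genes of amino acid supply and stress, 7 were higher and 6 were lower, near the 19.8% and 24% of all genes, and of 27 detoxification genes, 6 were higher and 10 were lower. With the error from all 49 arrays, 3 glycolysis and hypoxia genes were higher and 3 lower, 2 amino acid and stress genes were lower, and 5 detoxification genes were lower.

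**Figure D4:**
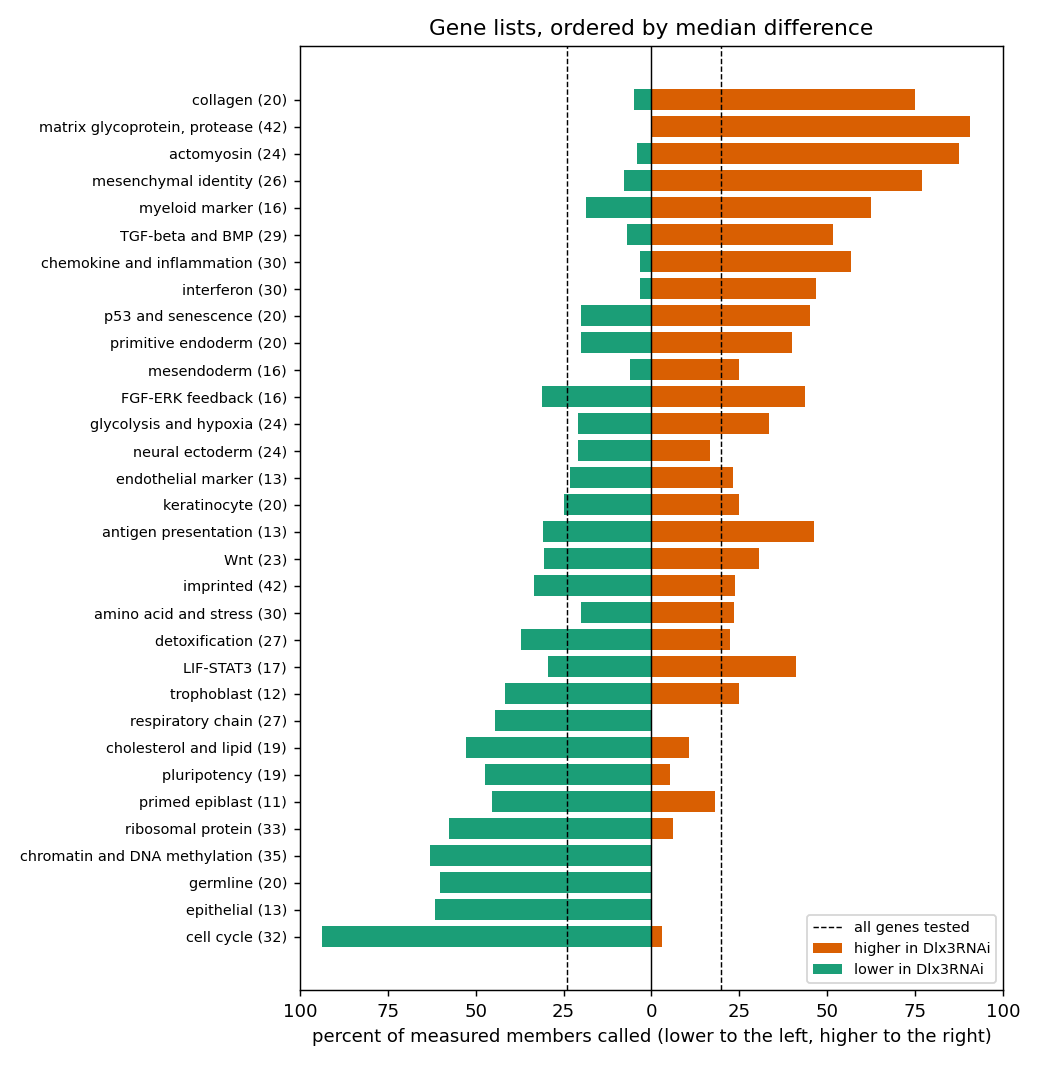
Percent of the measured members of each gene list called higher (right) or lower (left) in Dlx3RNAi, with the number measured in brackets, the lists ordered by median difference and dashed lines at the shares of all genes, 19.8% and 24%. The collagen list (median 1.33) is at the top and the cell cycle list (median -1.02) at the bottom.

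Imprinted genes, which are read from only the maternal or only the paternal copy, included a few members with large differences. Of 42 measured, 10 were higher and 14 were lower, with a median of -0.04, against 19.8% higher, 24% lower and a median of -0.02 over all genes. The neighbours H19 and Igf2 moved apart. H19, a non-coding RNA of the maternal copy, had 1068 and 1181 in Dlx3RNAi and 4180 and 3770 in G3 (-1.79, SE 0.11, adjusted p = 3.53e-07), while Igf2, a growth factor of the paternal copy, had 15894 and 16150 against 4305 and 3942 (1.95, SE 0.10, adjusted p = 1.88e-07). MEF exceeded both lines for both genes, with 31624 and 30270 for H19 and 38139 and 34760 for Igf2. Mean H19 was 746 in G6Gm and 1201 in R1, and mean Igf2 was 11550 and 9749. Among the pluripotent lines, G3 was thus highest for H19 and lowest for Igf2. The paternally expressed genes Mest and Plagl1 were lower. Mest had 166 and 160 against 604 and 569 (-1.67), and Plagl1 had 1319 and 1023 against 3473 and 3709 (-1.60). Dlx3RNAi was thus the lowest group for Plagl1, at least 2-fold below each of the others. Grb10 (1.36), Osbpl5 (1.80), Ndn (1.07) and Igf2r (0.88) rose, and Slc38a4 fell by 1.19. The arrays do not tell the parental copies apart.

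Signalling targets were called in both directions within each pathway, beside 19.8% higher, 24% lower and a median of -0.02 over all genes. Of 16 measured genes of FGF and ERK feedback, 7 were higher and 5 were lower, with a median of 0.08. Fos, a subunit of the AP-1 transcription factor, had 1252 and 1122 in Dlx3RNAi and 6423 and 5702 in G3 (-2.32, SE 0.14, adjusted p = 2.90e-07), while the other groups lay between 926 and 2204. Egr1 fell by 0.70, Ier2 by 0.78 and the phosphatase Dusp6 by 0.50. Other AP-1 members ran the other way: Fosl1 had 1364 and 1569 against 645 and 609 (1.18), and Junb had 1298 and 1144 against 504 and 538 (1.18). Phlda1 had 10375 and 9624 against 3840 and 3458 (1.45), and Ier3 rose by 1.36. Of 17 LIF and STAT3 genes, 7 were higher and 5 were lower, with the oncostatin receptor Osmr at 1.48 and the feedback inhibitor Socs3 at -0.57. Of 23 Wnt targets, 7 were higher and 7 were lower, with a median of -0.04. With the error from all 49 arrays, 2 FGF and ERK genes and 2 LIF and STAT3 genes were lower, and 4 Wnt targets were higher.

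Single genes set G3 apart from every other group. Ipp, an actin-binding protein with a kelch domain, had 5854 and 5373 in G3 and 279 and 195 in Dlx3RNAi, a 21.2-fold difference (log2 -4.41, SE 0.20, adjusted p = 1.07e-07). The 6 arrays of G6Gm, R1 and MEF lay between 205 and 358, so only the G3 arrays were high. In this sense G3 lay at least 2-fold above each of the other 4 groups in 25 called genes and at least 2-fold below each in 38, while Dlx3RNAi lay above each in 0 and below each in 2, Plagl1 and the endocytic receptor Lrp2. Baiap2l1, a membrane-bending adaptor, had 728 and 776 in G3 and 106 and 124 in Dlx3RNAi (-2.41). Fgfbp1, which releases stored FGF, had 2675 and 2663 against 619 and 681 (-1.99). The genes lowest in G3 included Crispld2, Mfap4, Col6a1, Tgfb3, Dkk3, Ccnd2 and Igf2. Meaf6, a subunit of acetyltransferase complexes, belonged to the high set by its mean only, since its G3 arrays read 6205 and 937.

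The third iPSC line helped to place the 2 lines. Of the 690 genes at least 2-fold higher in Dlx3RNAi, the G6Gm mean lay nearer to Dlx3RNAi than to G3 in 647 (93.8%), and of the 409 lower genes in 308 (75.3%), against 57.7% of all genes. R1 lay nearer to Dlx3RNAi in 170 of the 690 (24.6%) and in 150 of the 409 (36.7%), against 40.6% of all genes. R1 lay between the 2 lines in 608 of the 690 higher genes and 336 of the 409 lower genes. For the lower genes, the share of R1 nearer to Dlx3RNAi was close to that of all genes. The genes were chosen on Dlx3RNAi and G3, so these shares are a description.

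The differences were not spread evenly over the chromosomes. Of 388 tested genes on chromosome 12, 162 (41.8%) were lower in Dlx3RNAi and 41 were higher, with a median of -0.26, while the other autosomes and the X chromosome had medians from -0.10 to 0.06 and lower shares from 18% to 26%. The Y chromosome, with 1 tested gene, was left out. Relative to the other groups it was G3 that deviated. The median deviation of chromosome 12 genes from their mean over the 10 arrays, relative to all other chromosomes, was 0.18 and 0.15 on the G3 arrays, -0.04 and -0.10 on the Dlx3RNAi arrays, and between -0.06 and -0.02 on the 6 others. The median difference of G3 on this chromosome was 0.28 from G6Gm, 0.21 from R1 and 0.27 from MEF, which use the same G3 arrays. The medians of the other chromosomes ran from -0.04 to 0.12, from -0.05 to 0.06 and from -0.03 to 0.13 in these 3 contrasts. Cut into 4 runs of equal gene number in gene order, the chromosome had medians of -0.26, -0.24, -0.36 and -0.23. Fos lies on chromosome 12, as do Acot1, an acyl-CoA thioesterase (-1.77), Lrr1 (-1.75) and Plekhh1 (-1.73). Other genes of the same chromosome ran against the shift, among them Galnt16 (2.76), Tgfb3 (2.59), Fbln5 (2.42) and Ltbp2 (2.03). DNA copy number was not measured, and the cause of the shift was not tested.

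**Figure D5:**
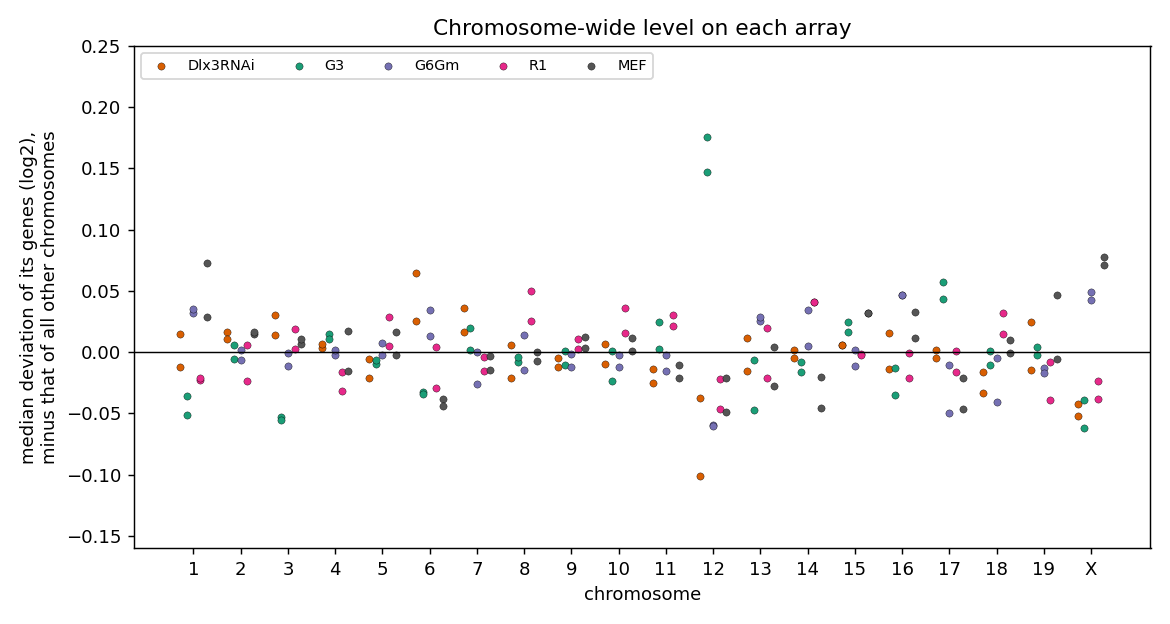
Median deviation of the genes of each chromosome from their mean over the 10 arrays, minus that of all other chromosomes (log2 units), with 1 point for each array. On chromosome 12 the G3 arrays stand at 0.18 and 0.15, above all other arrays.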

How the data were processed

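Total RNA from Dlx3RNAi, G3, G6Gm, R1 and uninfected MEF, 2 arrays each, was labelled with Cy5 and hybridised to 1-colour arrays, per the labels' protocols. The authors deposited linear intensities. The scanner software, the background step and the normalization are not stated in what was used here. The members and gene lists were chosen with earlier results of these data known.

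Of 19426 probes, 15539 had 1 gene symbol in the platform annotation and 3887 were left out. Symbols were updated through RefSeq (GRCm38.p6), 13971 being current, 1538 older synonyms and 30 kept as given. Where a gene had several probes (1086 genes), its brightest by the 10-array mean stood for it, and 12090 genes had values on all 10. The authors' intensity values were taken to log2(intensity + 32) and fitted in limma 3.58.1 (R 4.3.3) with lmFit and eBayes with trend, 1 mean for each group and 5 residual degrees of freedom, with Benjamini-Hochberg adjustment at 0.05. The step was tested on simulated data with independent noise on each array and few changed genes. That setting does not cover arrays that share a culture, or the large share of genes called here.

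By rule, the genes named were the 15 largest rises and 15 largest falls among genes that passed, did not overlap between the lines and had a mean above the median intensity of 339 in the brighter line, the factor genes, up to 6 called members of each list in each direction, and defining members. Other genes, such as Postn, Mmp9, Itga5, Meaf6 and those given for chromosome 12, were named after their values were seen. Lists are described by counts and medians without a test of the list. Alternatives covered the pseudocount, the filter, the probe, loess, the arrays in the fit, the trend and leaving out each array. The labels name no batch for the replicate numbers, and the array 1 minus array 2 differences of the lines correlated at 0.09 over genes, so the numbers were not used to pair arrays. Chromosomes and the gene order along chromosome 12 came from RefSeq, and no other coordinates were used beyond the promoter table.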

Additional observations from a re-analysis of the deposited data

How the results depend on the processing

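None of the 292 called named genes, nor the chromosome 12 value, changed direction under the 17 alternatives. Other called genes were not checked for this. With the largest pseudocount tried, 4 times the main one, 211 genes were at least 2-fold lower, and the chromosome 12 median relative to the other chromosomes was -0.17, against -0.24. With all 49 arrays in the fit, 3043 genes passed, 1407 higher and 1636 lower, and 79 of 292 called named genes lost the call, a change whose cause was not tested. With only genes at or above the median intensity, fewer were tested, 3473 passed, 1533 of them higher, and the chromosome 12 value was -0.30. Without 1 replicate, 3860 to 4622 genes passed, 1838 to 2095 higher and 2022 to 2527 lower, 701 to 732 at least 2-fold higher and 371 to 509 at least 2-fold lower, the Dlx3 difference ran from -0.48 to 0.06 without passing, and the chromosome 12 value from -0.26 to -0.21. In these fits the line left with 1 array was assumed to vary like the other groups. With the replicate block, 5191 genes passed, 2341 higher and 2850 lower, and 7 of the 292 lost the call; the labels do not pair the arrays. Of the 292, 199 passed in every alternative in which they were tested. Only 211 of the 292 were tested among genes at or above the median intensity. Dim genes are limited by signal over background.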

Other observations

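Markers of other cell types gave small counts. Of 13 measured endothelial markers, 3 were higher in Dlx3RNAi and 3 were lower, near the 19.8% and 24% of all genes. Of 8 adipocyte markers, 1 was higher and 2 were lower, and of 5 skeletal muscle markers, 2 were higher and 1 was lower. With the error from all 49 arrays, 1 endothelial marker was higher and 1 lower, no adipocyte marker was higher and 1 was lower, and no skeletal muscle marker was lower. Of 5 measured genes of the two-cell-like state, an early embryo programme seen in rare stem cells, none was higher and 2 were lower, or 1 with all 49 arrays.

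Genes read for the labelled female sex were dim in both lines. Xist, the RNA that coats the inactive X chromosome, had 69.6 and 58.5 in Dlx3RNAi and 87.5 and 78.2 in G3, and did not pass the test (-0.26, SE 0.13, limma adjusted p = 0.119). Kdm5d, a Y-linked demethylase, had a mean of 109 ± 27.7 (SD, n = 2 arrays) in Dlx3RNAi and 70.6 ± 6.01 in G3 and was called higher (0.44, limma adjusted p = 0.0415), but it lost the call with all 49 arrays in the fit. In MEF, Xist had 160 and 152 and Kdm5d had 270 and 222.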
